A study of Nothobranchius furzeri with 9 samples.

Results

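The T cell receptor signalling genes described here were lck, taken by its identifier ENSNFUG00015015524, and the genes whose deposited name matched 1 of 11 symbols of the same pathway in any case. The symbols included zap70, cd3e, cd8a, cd28 and lat. Of the 11, 2 had a gene under that name and the other 9 matched no gene name, so the set has 3 genes of the 25475 in the table, of which lck and zap70 are described. The gene lck was included because its level in these libraries was already known to differ between the ages, so its values are given as a description, without a p-value, and zap70 was found by name alone.

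Bulk liver RNA was sequenced from male, wild-type African turquoise killifish (Nothobranchius furzeri), a short-lived fish, of the strain GRZ, and age was the factor compared. The ages were young at 6 weeks, adult at 12 weeks and old at 23 to 24 weeks, with 3 libraries each. The labels number the replicates without saying that they are separate fish, so p-values measure the spread between these samples, which may be technical. Libraries held 19600325 to 33951438 estimated counts. The share of counts on ribosomal RNA genes was 29.65, 4.52 and 4.74% in young replicates 1, 2 and 3, with replicate 1 far above its group, 2.22 to 2.51% in adult libraries and 7.07 to 21.98% in old ones. Hepatocyte markers were present in every library, with summed levels of 97880 to 183100 CPM (counts-per-million, scaled to the TMM-adjusted library size). Genes of the exocrine pancreas reached 66820 CPM in adult replicate 1, 5403 CPM in adult replicate 2 and 20540 CPM in adult replicate 3, against 356.5 to 1850 CPM in young and 458 to 941.4 CPM in old libraries.

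A T cell recognises a peptide on a presenting cell through its antigen receptor, whose own chains have no enzyme activity. The Src family kinase LCK, held at the coreceptors CD4 and CD8, phosphorylates the tails of the CD3 and zeta chains. The kinase ZAP70 then docks on those tails and phosphorylates the adaptors LAT and SLP-76 (encoded by LCP2), and phospholipase C gamma is activated at that complex. These roles are known from mammals. In mammals LCK and ZAP70 are used mainly as marks of T cells and NK cells, and liver holds such cells among the hepatocytes. In bulk tissue, a change in the number of cells of a type and a change in RNA per cell cannot be told apart.

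The level of lck was higher at each later age, and on the linear CPM scale most of the increase lay between 12 weeks and 23 to 24 weeks. The gene (chromosome sgr16, 36565521 to 36582172, plus strand, in the coordinates of the deposited table, whose build the sources used here do not give) had 0.0546, 0.353 and 0.0351 CPM in young replicates 1, 2 and 3, 0.990, 1.26 and 1.48 CPM in the adult libraries and 13.6, 17.7 and 11.6 CPM in the old ones. No 2 ages overlapped, and the lowest old library was 7.85 times the highest adult one. Behind these levels were 1, 16 and 1 counts in young, 24, 28 and 37 in adult and 243, 349 and 251 in old libraries. The young level therefore rests on few reads, most of them in replicate 2. The 18 counts summed over the young libraries correspond to 0.195 CPM, with an exact Poisson 95% interval of 0.116 to 0.309 CPM. The same interval was 1.001 to 1.53 CPM for the 89 adult counts and 13.3 to 15.3 CPM for the 843 old counts. These intervals cover counting error only.

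In means, lck had 0.148 ± 0.178 CPM in young, 1.24 ± 0.247 in adult and 14.3 ± 3.09 in old libraries (SD, n = 3 each). The fit across all genes gave it a log2 fold change of 2.88 ± 0.71 (SE) in adult over young, 3.52 ± 0.68 in old over adult and 6.4 ± 0.8 in old over young. Without young replicate 2, which held 16 of the 18 young counts, the values were 4.68 for adult over young and 8.19 for old over young. In old over young, 36 of the 13971 tested genes had a larger log2 fold change. Across those tested genes, every old library lay above every young one in 7.69%, every old one above every adult one in 19.1% and every adult one above every young one in 12.0%. Both steps were free of overlap, as in lck, in 95 genes or 0.68%. The opposite order without overlap was seen for adult below young in 9.68% and for old below young in 7.9%. These shares are background only, because lck was chosen on the same libraries.

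Per transcript length, lck also took a higher place among all genes at each later age. In the deposited TPM (transcripts-per-million), a unit that allows comparison between genes, it averaged 0.107 ± 0.133 in young, 0.802 ± 0.163 in adult and 8.52 ± 2.05 in old libraries. In young liver 15702 genes of the table had a higher mean TPM, in adult liver 11152 and in old liver 3585. When the fit also held the rRNA share of each library, the log2 fold change of lck was 2.43 in adult over young, 4.3 in old over adult and 6.73 in old over young. The part of pancreas RNA in the adult values was not tested.

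The gene of the kinase that acts next after lck in the pathway, zap70, was barely detected at any age. For zap70 (ENSNFUG00015016885, sgr17, 13331293 to 13343515, plus strand) the counts were 0, 2 and 9 in young, 8, 16 and 0 in adult and 0, 0 and 13 in old libraries. This gave 0.12 ± 0.171 CPM in young, 0.35 ± 0.36 in adult and 0.201 ± 0.348 in old (SD, n = 3 each). Each age had at least 1 library at 0, the highest library was adult replicate 2 at 0.719 CPM, and all ages overlapped. The 13 old counts came from replicate 3 alone, while old replicates 1 and 2 had 13.6 and 17.7 CPM of lck with 0 counts of zap70. A count of 0 allows up to 3 counts, which is 0.168 CPM in old replicate 1 and 0.152 CPM in old replicate 2.

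The filter on low counts removed zap70, and lck alone of the 3 genes (1 of 3) entered the fit across all genes. A 2-sided exact permutation test over libraries gave p = 0.7 for zap70 in old against adult (difference of means -0.149 CPM) and p = 1.0 in old against young (0.0811 CPM). In adult against young the exact test gave p = 0.5 (0.23 CPM). With 3 libraries against 3 this test cannot go below 0.1. At these depths no difference of zap70 between ages was detectable, which does not show that there was none.

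**Figure D1:**
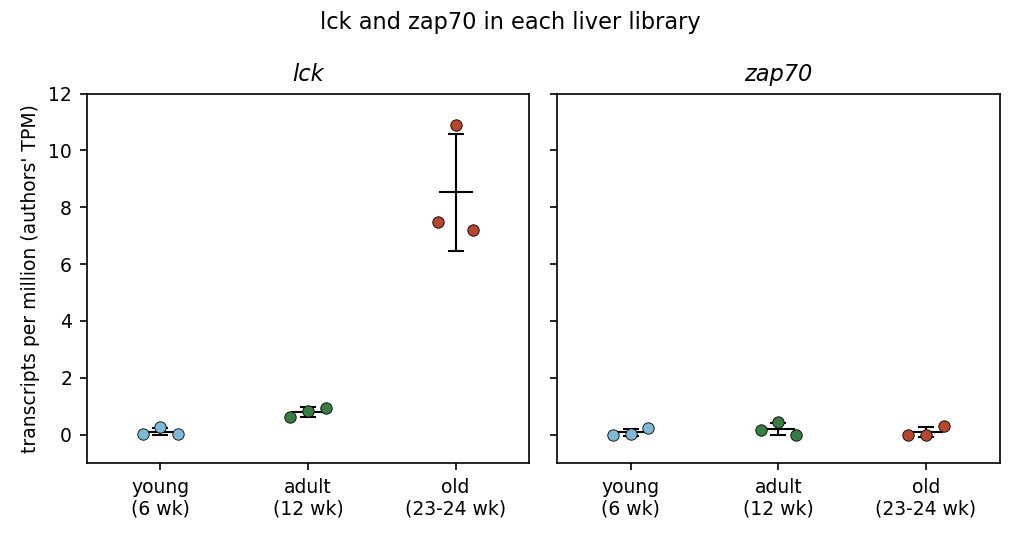
Deposited TPM (linear axis) of lck and zap70 in each library, by age. Points are libraries, the long bar is the mean and the whiskers are 1 SD (n = 3). The old libraries have 7.195 to 10.88 TPM of lck, and no library exceeds 0.431 TPM of zap70.

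The receptor itself could be followed only in part. Of a list of 19 symbols for receptor chains, coreceptors and costimulatory receptors (among them trac, cd3d, cd4, cd2, cd5, icos and ctla4), 0 matched a gene name of the table or the RefSeq symbol of its Entrez number. RefSeq holds genes such as cd8a, cd8b and lat to which no row of the table is tied, so a missing symbol says nothing of the level of that gene. By description, 2 further genes belong to the receptor. One, LOC107372866, is described as a CD3 delta chain-like protein, a signalling chain of the receptor. It had 0, 0.508 and 0.14 CPM in young, 0.413, 0.27 and 0.16 CPM in adult and 0.449, 0.609 and 0 CPM in old libraries. Its ages overlapped. The other, ENSNFUG00015012492, described as a T cell receptor alpha or delta variable segment, had 1 count in each adult library and 0 counts elsewhere.

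No tested gene of the wider pathway was called by edgeR between any pair of ages with all libraries in the fit. Lists of 105 symbols for kinases, adaptors, downstream effectors, induced targets, transcription factors and homing receptors, with the receptor list above, matched 82 genes besides the set itself, of which 54 were tested. In edgeR 0 of them were called in each comparison. Of all tested genes, 0.0143% were called in adult against young, 0.00716% in old against adult and 0.558% in old against young (0.344% higher and 0.215% lower). At an unadjusted p under 0.05 in edgeR the list genes numbered 4 (3 higher), 8 (1 higher) and 8 (4 higher), against 1363, 3158 and 2108 of all tested genes. Positive log2 fold changes were seen in 34, 22 and 31 of the 54. DESeq2 called 1, 4 and 6 of the 54, while it called 2.76%, 13.0% and 7.56% of all tested genes, and limma-voom called 0 in each comparison. Without young replicate 1, edgeR called 2 of the 57 list genes tested there in old against adult and 1 in old against young. In that setting it called 1625 and 1321 of all 14583 tested genes in those comparisons, so the list calls are not read as a result about these genes. The median log2 fold change of the 54 genes was 0.22 in adult over young, -0.11 in old over adult and 0.16 in old over young, and that of all tested genes was -0.07, -0.05 and -0.09.

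Among kinases and phosphatases of the pathway, ptpn6, which encodes a phosphatase that restrains receptor signalling, had the highest TPM averaged over all 9 libraries, a mean to which old replicate 1 added most. It had 4.56 ± 0.925 CPM in young, 8.56 ± 1.47 in adult and 16.4 ± 15.1 in old libraries, with 33.7 CPM in old replicate 1 and 9.03 and 6.4 CPM in old replicates 2 and 3 (log2 1.84 ± 0.59 in old over young, edgeR adjusted p = 0.181), and DESeq2 called it. The kinase gene fynb, a close relative of lck that can also phosphorylate the receptor chains, had 5.84 ± 3.95, 3.58 ± 0.589 and 3.22 ± 1.7 CPM at the 3 ages in that order (log2 -0.86 ± 0.61, edgeR adjusted p = 0.554). PAG1, which recruits the kinase CSK that holds LCK inactive, had 2.48 ± 1.14 CPM in young, 3.58 ± 1.65 in adult and 5.48 ± 1.25 in old libraries (log2 1.14 ± 0.55, edgeR adjusted p = 0.367). None of these passed edgeR's test.

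Adaptors and signal carriers were detected at every age, and none was called by edgeR. The adaptor gene grb2b had 12.7 ± 4.63 CPM in young, 15.5 ± 2.05 in adult and 7.65 ± 1.89 in old libraries (log2 -0.73 ± 0.38 in old over young, edgeR adjusted p = 0.405). PLCG1, a phospholipase that makes the calcium and diacylglycerol signals, had 11.1 ± 5.04, 7.75 ± 1.81 and 12.5 ± 11.0 CPM at the same ages (log2 0.18 ± 0.66, edgeR adjusted p = 0.932). A second gene of that name, plcg1 (ENSNFUG00015010750), had 8.855 ± 6.41, 6.04 ± 1.74 and 3.12 ± 1.93 CPM (log2 -1.5 ± 0.75, edgeR adjusted p = 0.384). Its old libraries lay below every adult one and overlapped the young ones. PRKCQ, the diacylglycerol-dependent kinase downstream of the receptor, was named after its values were seen, with 0, 0.355 and 0.649 CPM in old against 3.18, 4.18 and 3.85 CPM in adult libraries. The 2 ranges do not overlap. Its log2 fold change in old over adult was -3.44 ± 0.96 (edgeR adjusted p = 0.115), and DESeq2 gave -3.46 with adjusted p = 0.000387. Every old library lay below every adult one in 21.6% of all tested genes. DESeq2 also called ORAI1, a calcium channel subunit, and PPP3CA, a catalytic subunit of calcineurin, both lower in old liver, and DOCK2 and rorc, both higher in old than in young. It called rorc higher in adult than in young libraries too, and rorcb lower in old than in adult ones. ORAI1 had 0, 0.0507 and 1.39 CPM in old libraries, against 4.33, 5.57 and 4.41 CPM in adult ones (log2 -3.27 ± 1.17, edgeR adjusted p = 0.154). PPP3CA had 0.618, 0.304 and 0.789 CPM in old libraries, against 2.64, 1.75 and 1.72 CPM in adult ones (log2 -1.83 ± 0.65, edgeR adjusted p = 0.149). In ORAI1 and PPP3CA the old libraries lay below all adult ones and, as in PRKCQ, below all young ones. Old below young without overlap was seen in 7.9% of all tested genes, and the share below both ages was not computed. A second channel gene, ORAI1B, had 2.55 ± 1.437 CPM in old and 2.633 ± 0.4053 CPM in adult libraries, with overlap (log2 -0.04 ± 0.7, edgeR adjusted p = 0.975). DOCK2, which activates Rac in blood cells, had 5.33, 1.93 and 0.232 CPM in old libraries, against 0, 0 and 0.316 CPM in young ones, with overlap (log2 4.49 ± 1.65, edgeR adjusted p = 0.238).

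Of the downstream effectors, stim1a, the calcium store sensor, had 22.1 ± 6.0 CPM in young, 33.5 ± 4.83 in adult and 24.7 ± 7.98 in old libraries. Its adjusted p-values in edgeR were 0.464 to 0.865 over the 3 comparisons. Of the targets that receptor signalling induces, tnfrsf9a was the most abundant, with 0.75 ± 0.561 CPM in young, 2.75 ± 2.59 in adult and 2.11 ± 2.65 in old libraries (edgeR adjusted p = 0.609 in old against young). NR4A1 (ENSNFUG00015020654), an early response gene, had 0 counts in all old libraries. It had 0, 72 and 5 counts in young and 20, 24 and 0 in adult ones. Transcription factors of T cells that other liver cells may also use were present, such as TOX with 13.5 ± 11.0, 22.6 ± 3.01 and 19.0 ± 5.29 CPM in young, adult and old libraries. Others, named here with their values known, went in different directions. The genes runx3 and tbx21 had 0 counts in all old libraries, but both were too low to be tested and no direction is read from them. In young libraries runx3 had 0, 4 and 22 counts and in adult ones 6, 3 and 3. For tbx21 every young library was also at 0, and the adult ones had 10, 0 and 8 counts. The gene tcf7 had 2.06 ± 0.938 CPM in old and 0.576 ± 0.171 CPM in adult libraries without overlap (log2 1.83 ± 0.9, edgeR adjusted p = 0.255), and 1.98 ± 1.53 CPM in young ones. Of the 7 tested genes of the transcription factor list, tcf7 was the only 1 with a positive log2 fold change in old over adult (median -0.72). In adult over young 5 of the 7 were positive (median 0.46), and in old over young 4 were (median 0.03). The gene with the symbol rorc, described as ROR-beta-like, had 3.55 ± 1.16 CPM in old and 0.537 ± 0.466 CPM in young libraries without overlap (log2 2.67 ± 0.99, edgeR adjusted p = 0.241). Its adult libraries had 4.927 ± 3.055 CPM, above all young ones and overlapping the old ones. The log2 fold change of rorc was 3.14 ± 1.01 in adult over young (edgeR adjusted p = 0.37) and -0.47 ± 0.92 in old over adult. KLF2, which controls T cell traffic and is also a gene of endothelial cells, had 8.1 ± 6.93 CPM in young, 4.56 ± 0.804 in adult and 13.0 ± 0.656 in old libraries (log2 1.51 ± 0.56 in old over adult, edgeR adjusted p = 0.164).

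Markers of other blood cells were read beside lck. Of 14 symbols for NK and cytotoxic cells, 2 genes were found, faslg and il2rb, and both had 0 counts in every old library, in young replicates 2 and 3 and in adult replicate 3. The B cell gene cd79a had 0.337, 0.355 and 0.325 CPM in old libraries, against 0.0825, 0.045 and 0.12 CPM in adult ones, on 6, 7 and 7 counts in old and 2, 1 and 3 in adult. In young libraries it had 0.382, 0 and 0.245 CPM, which overlaps the old ones. The whole B cell list summed to 31.7 to 112.4 CPM in young, 306.2 to 351.1 in adult and 38.0 to 145 in old libraries, mostly from XBP1, a gene many secretory cells use. The sums therefore follow XBP1 and are not read as a level of B cells. Of the 5 tested genes of that list, 3 had a positive log2 fold change in adult over young (median 1.1). In old over adult 4 were positive (median 0.87) and in old over young 4 (median 0.71), with 0 called by edgeR. The macrophage list (15 genes of 17 symbols) summed to 358.5 to 408.6 CPM in young, 577.2 to 1159 CPM in adult and 774.6 to 1161 CPM in old libraries. These sums were mostly from HMOX1, cd68 and lgmn. HMOX1 alone had 121.3, 62.68 and 41.25 CPM in young, 84.0, 75.25 and 659.5 in adult and 284.9, 403.1 and 676.6 in old libraries. The sums are therefore not read as a level of macrophages. Of the 14 tested genes of that list, 13 had a positive log2 fold change in adult over young (median 1.51). In old over adult 6 were positive (median -0.05) and in old over young 12 (median 1.38), with 0 called by edgeR. The receptor gene csf1ra had 13.5 ± 10.1 CPM in old and 0.613 ± 0.557 CPM in young libraries without overlap (log2 4.4 ± 1.03, edgeR adjusted p = 0.0922). The complement gene C1QA had 13.5 ± 8.1 CPM in old and 1.12 ± 0.872 CPM in young libraries, also without overlap (log2 3.59 ± 0.72, edgeR adjusted p = 0.0633). In adult libraries csf1ra had 7.36 ± 3.57 CPM and C1QA 8.27 ± 2.42 CPM, and both overlapped the old ones. Thrombocyte markers summed to 346.8 to 791.6 CPM in young, 812.2 to 1183 in adult and 1084 to 1685 in old libraries, with adult and old overlapping. Nearly all of this was f5, with means of 534.2 CPM in young, 982.1 in adult and 1406 in old libraries. The sums therefore follow f5 and are not read as a level of thrombocytes. For the 6 tested genes of the list the median log2 fold change was 0.73 in adult over young, with 5 positive. It was -1.05 in old over adult, with 2 positive, and -0.18 in old over young, with 3 positive. The part of any of these cells in the level of lck was not tested. Across the 10 lists of other cell types, which include hepatocytes, endothelial cells and exocrine pancreas, edgeR called 0 of 76 tested genes in each comparison. Their median log2 fold change was 0.87 in adult over young, -0.2 in old over adult and 0.21 in old over young, with 60, 29 and 43 positive values. The 10 tested pancreas genes among them had medians of 5.06, -5.5 and -0.46, and their part in the pooled values was not tested. Of the 76 genes, 24 (22 higher), 20 (3 higher) and 19 (14 higher) had an unadjusted p under 0.05 in edgeR in those comparisons. DESeq2 called 14, 15 and 11 of the 76. Of all 13971 tested genes, 1363, 3158 and 2108 had such an unadjusted p. DESeq2 called 2.76%, 13.0% and 7.56% of all tested genes, and edgeR 0.0143%, 0.00716% and 0.558%.

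Other Src family kinases, which resemble lck in sequence and could share reads with it, had mostly negative log2 fold changes in old over young. Of the 7 tested genes, 1 was positive in old over young (median -0.4) and 1 in old over adult (median -0.82). In adult over young 4 were positive (median 0.01). The medians of all tested genes were -0.09, -0.05 and -0.07 in that order. Of 9 such genes 7 were tested, and edgeR called 0 in any comparison, with the lowest adjusted p at 0.133. At an unadjusted p under 0.05 there were 2 in old against young, 2 in old against adult and 0 in adult against young, and DESeq2 called 1, 2 and 0. All tested genes with such a p numbered 2108, 3158 and 1363 of 13971 in that order. Of all 13971, DESeq2 called 7.56%, 13.0% and 2.76%, and edgeR 0.558%, 0.00716% and 0.0143%. Over the 6 with more than 3 counts at both ages, log2 fold changes in old over young ran from -1.33 for YES1 to 0.48 for FRK. FRK had 18.0 ± 2.04 CPM in old and 12.9 ± 7.63 CPM in young libraries (edgeR adjusted p = 0.686). The seventh, SRC (ENSNFUG00015015352), had 0 counts in the old libraries, against 82 summed over the young ones, and is given no fold. A second, untested gene of that name, src (ENSNFUG00015023398), had 0, 11 and 18 counts in old libraries, against 0 in every young one, and blk, a kinase of B cells, had 0, 0.203 and 0 CPM in the old ones. Per length, lck had 8.52 ± 2.05 TPM in old liver, where yes1 (ENSNFUG00015008478) had 6.2 ± 1.8 TPM and fynb 1.802 ± 0.864 TPM.

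No tested gene close to lck on its chromosome was called by edgeR. The table lists 15 genes within 60 kb, of which 12 were tested. By edgeR 0 were called in each comparison, while 3 had an unadjusted p under 0.05 in old against young, 2 in old against adult and 2 in adult against young, and DESeq2 called 2, 1 and 0. Over all 13971 tested genes edgeR called 0.558%, 0.00716% and 0.0143% in that order, so 0 of 12 is near the background. An unadjusted p under 0.05 was seen in 2108, 3158 and 1363 of all tested genes, and DESeq2 called 7.56%, 13.0% and 2.76%. Over the 11 with more than 3 counts at both ages, log2 fold changes in old over young ran from -1.51 to 0.24. The twelfth, gjb10, had 0, 0 and 1 counts in old libraries, against 28, 11 and 36 in young ones, and is outside that range. The gene tmem54a overlaps the end of lck by 3203 bases on the opposite strand, and whether counting used strand is not stated, so reads of the 2 genes may not be separable there. It had 3.76, 0.152 and 1.3 CPM in old libraries, against 3.002, 1.46 and 0.807 CPM in young ones (log2 -0.01, edgeR adjusted p = 0.998). The next gene, hdac1, had 4.21, 14.8 and 9.09 CPM in old and 6.17, 7.84 and 9.72 CPM in young libraries (log2 0.24, edgeR adjusted p = 0.856).

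**Figure D2:**
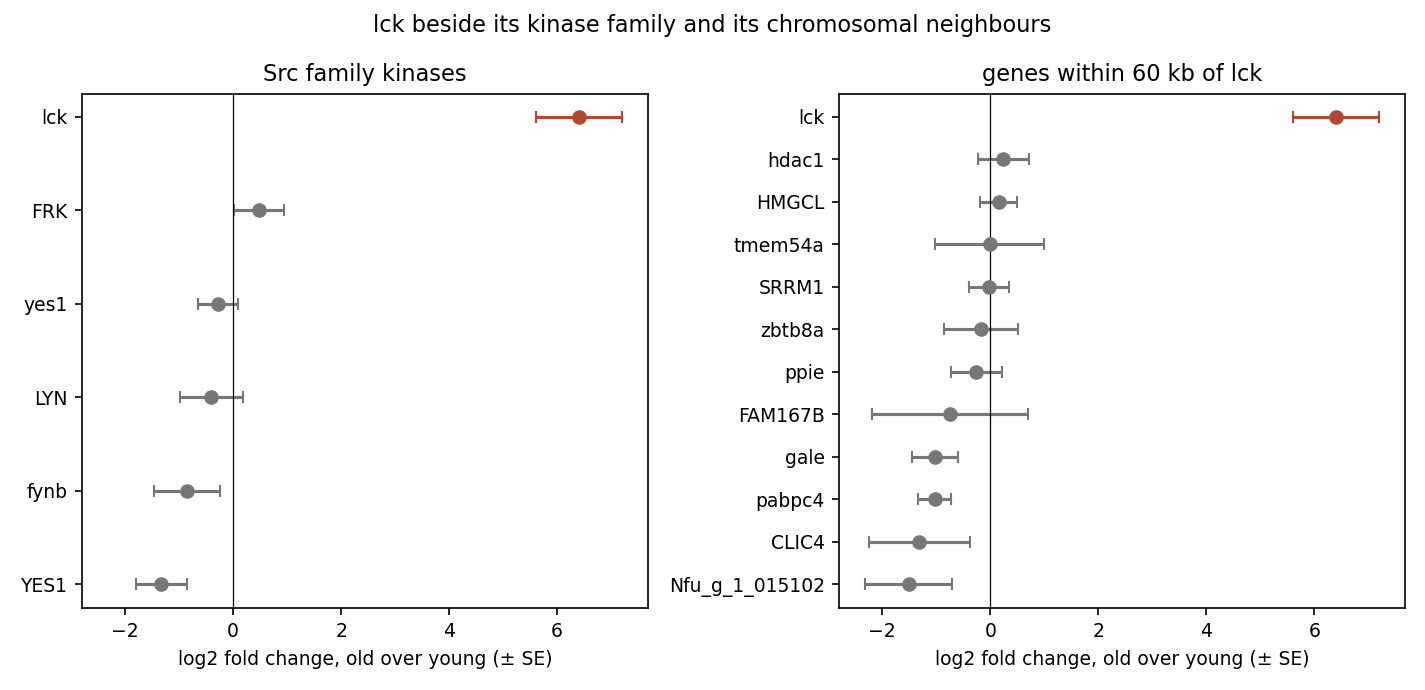
Log2 fold change in old over young liver with its standard error for lck beside the Src family kinases (left) and the genes within 60 kb (right), for tested genes with more than 3 counts at both ages, of which 5 of the 6 Src family kinases are drawn. The value of lck is 6.4, and the others drawn lie between -1.51 and 0.48.

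The genes whose profile over the 9 libraries was most like that of lck did not include a gene of the T cell or pathway lists among the 10 named. Likeness was measured as the root mean square difference between log2(CPM + 0.5) profiles, each centred on its own mean, over 11844 genes with a mean of at least 1 CPM, whose median difference from lck was 2.02. Genes below that level, such as zap70, could not be named. The T cell and pathway lists hold 82 genes, few beside 11844, so nothing is read from their absence among the 10. The closest gene with a name was CU694319.1, described as a Myb/SANT-like DNA-binding protein, with a difference of 0.6 and means of 0.11 CPM in young, 1.19 in adult and 7.03 in old libraries. It was followed by lmo7b, a LIM domain gene, at 0.61, with means of 0.109, 0.504 and 7.22 CPM. The dual-specificity phosphatase gene DUSP4 was at 0.7, with 0.691, 3.46 and 15.2 CPM. The protocadherin gene PCDH15 was at 0.74, with 0.377, 2.27 and 14.5 CPM.

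The other 6 were WDR70, ucp1, arg2, vangl2, depdc7a and LOC107391141 (periphilin-1-like), at 0.76 to 0.85. The most abundant of them was ucp1, the mitochondrial uncoupling protein gene, with 177.2 CPM in young, 393.2 in adult and 1654 in old libraries. The arginase gene arg2 had 0.0662, 0.982 and 4.16 CPM at those ages. All 10 genes had every old library above every adult one, and 4 also had every adult library above every young one, as in lck. They were picked for this likeness, so these values are a description.

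**Figure D3:**
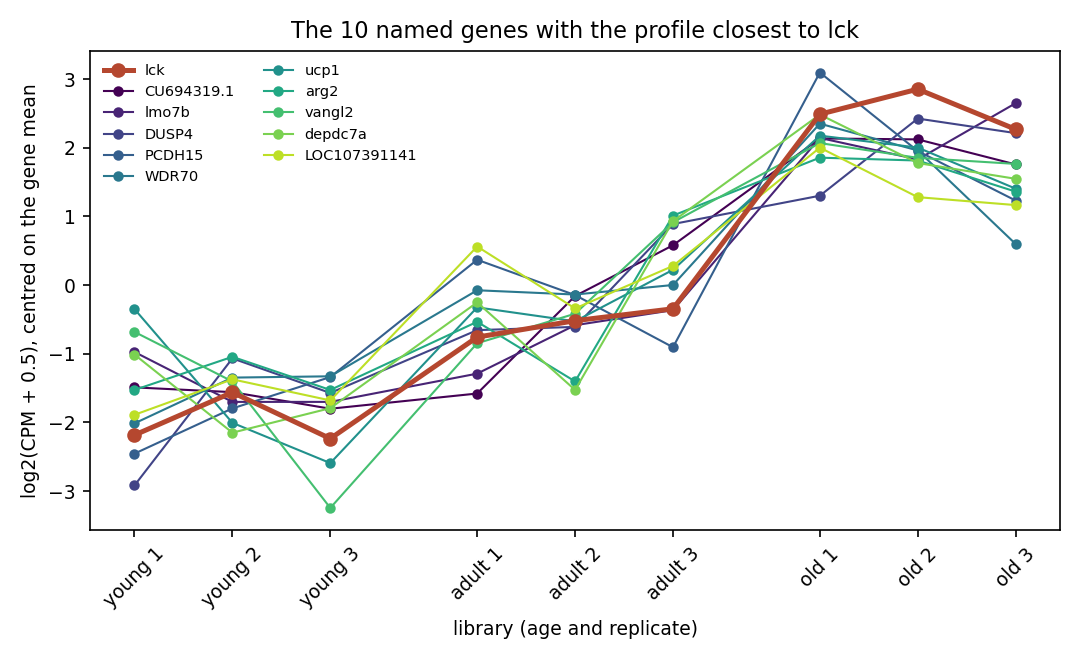
Profiles of lck (thick line) and of the 10 named genes closest to it, as log2(CPM + 0.5) centred on each gene's mean, over the 9 libraries. All 11 lines are highest in the old libraries, and the root mean square difference from lck runs from 0.6 to 0.85.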

How the data were processed

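Estimated counts per gene, expected counts not scaled between libraries, and TPM, scaled by gene length and to a common sum, were deposited by the authors per the file headers. The submitters' processing notes name DRAGEN. The sources used here give neither its role nor the genome build and annotation. Between 93.6 and 95.7% of the estimated counts were whole, and all were rounded. TPM was used for levels between genes. Counts were filtered with filterByExpr (13971 of 25475 genes kept), scaled with TMM and fitted with a robust quasi-likelihood model, 1 mean per age over 9 libraries (edgeR 4.0.16, R 4.3.3). The p-values were adjusted by Benjamini-Hochberg over all genes tested, with a threshold of 0.05. Standard errors are the fold change divided by the square root of F. The fit was tested on simulated data with less spread between libraries than these data, whose common biological coefficient of variation was 0.61. Changes were planted only in better-covered genes, so that test does not give the power for the low genes described here. The members and lists were chosen with earlier results of these data known. The Src family, neighbour and description searches were added after seeing the data. Symbols were matched in any case with an a or b suffix, also through RefSeq symbols (NfurGRZ-RIMD1) of the Entrez numbers. The symbol RELA belongs to a gene described as a nucleoside transporter, and ikzf1 to a gene described as a tubulin tyrosine ligase. Both were kept in the lists, ikzf1 among the tested transcription factors. The rule for named genes took all members, called list genes and up to 4 more per role by mean TPM, the 3 most abundant markers of another cell type, and the 10 closest profiles. Some genes, 1 member among them, are not reported here. The text gives a selection of the rest, and genes outside the rule were picked with their values known. The alternatives were RLE, upper-quartile and library size scaling, no filter, DESeq2 1.42.0, limma-voom 3.58.1, the 2 ages alone, the replicate number as a block, removal of rRNA and mitochondrial genes, the rRNA share as a covariate, TPM and each library left out.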

Additional observations from a re-analysis of the deposited data

How the results depend on the processing

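The log2 fold change of lck stayed positive under all 20 alternatives in each comparison, at 2.43 to 4.68 in adult over young, 3.33 to 4.3 in old over adult and 5.95 to 8.19 in old over young. With the rRNA share as a covariate it was 2.43 in adult over young and 4.3 in old over adult. With a library left out it ran from 2.44 to 4.68, 3.33 to 3.65 and 5.95 to 8.19. The gene zap70 was not called under any alternative, and in several of them the filter removed it. It was tested with no filter and in the fits that left out young replicate 1 or 3, adult replicate 1 or 3, or old replicate 1. The replicate numbers are not stated to pair fish, and correlations of same-numbered deviations ran from -0.05 to 0.21, with 4 of 9 libraries correlating best with their own number. With the replicate block, lck had 3.2, 3.47 and 6.67, and the genes called were 0 in adult against young, 0 in old against adult and 45 in old against young, against 2, 1 and 78 without it.

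The counts of genes called varied widely. In adult against young they were 13 with no filter, 386 in DESeq2, 10 in limma-voom, and 0 with the 2 ages alone or the rRNA covariate. In old against adult they were 74 with no filter, 1811 in DESeq2, 1682 with the 2 ages alone and 2 with the rRNA covariate. In old against young they were 131, 1056, 6 and 338 under those 4. With a library left out they ran from 0 to 12, 0 to 1625 and 2 to 1321, the highest values in old against adult and old against young coming without young replicate 1. For the T cell lists, the calls were 1, 4 and 6 in DESeq2, 2 in old against adult with the 2 ages alone, and 0 to 2 with a library left out. For other cell types they were 14, 15 and 11 in DESeq2, 8 and 1 in old against adult and old against young with no filter, 15 in old against adult with the 2 ages alone, 2 in old against young with the rRNA covariate, and with a library left out 0 to 2, 0 to 14 and 0 to 5. The cause was not tested. The level of zap70 rests on few counts at each age. The log2 ratio of its mean CPM was 1.54 in adult over young, -0.8 in old over adult and 0.75 in old over young. It was 0.28 in old over adult without adult replicate 2, and without young replicate 3 it was 3.99 in adult over young and 3.19 in old over young.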
